A study of Mus musculus with 6 samples.

Results

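The mitochondrial carrier family Slc25 was examined in whole hearts of mice that differ in the affinity of the Na/K-ATPase α1 for cardiotonic steroids (CTS). Its members were the genes annotated as protein-coding in the count table whose symbol begins with Slc25a, which gave 47 of the 54532 genes listed. They were compared between the genotypes by the substrate that each carrier is known to move. Hearts came from 3-month-old male mice on a C57BL/6 background. Resistant hearts, of genotype α1 r/rα2 s/s (mice 368, 369 and 370), carried the naturally CTS-resistant rodent α1 together with the CTS-sensitive α2. Sensitive hearts, of genotype α1 s/sα2 s/s (mice 379, 380 and 381), carried an α1 engineered to be CTS-sensitive in all tissues, and the same α2. RNA was sequenced once per heart, and each mouse was a replicate. Resistant hearts had total counts of 20240817, 19710942 and 20165386, and sensitive hearts of 20470065, 19309312 and 20427506.

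Slc25 carriers are small proteins of the inner mitochondrial membrane that exchange nucleotides, phosphate, organic acids, amino acids, cofactors and metals between the cytosol and the matrix. In the heart, the ADP/ATP carrier and the phosphate carrier supply ATP synthase and export its product, the carnitine-acylcarnitine carrier feeds fatty acid oxidation, and the aspartate-glutamate and oxoglutarate carriers form the malate-aspartate shuttle. A few members reside in other membranes, such as Slc25a17 in peroxisomes and Slc25a46 in the outer mitochondrial membrane.

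Differences between genotypes in the transcripts of the family were small, with fitted log2 fold changes from -0.72 to 0.47. Of the 47 members, 41 passed the filter on low counts, and by edgeR's quasi-likelihood test 0 of these 41 reached an adjusted p under 0.05, where 1.44% of the 14866 genes tested did (0.780% higher and 0.659% lower in sensitive hearts). At an unadjusted p under 0.05 there were 11 members, 8 with higher and 3 with lower values in sensitive hearts, which is 26.8% of those tested, against 14.5% of all genes (7.19% higher and 7.27% lower). DESeq2 called 2 of 37 members, Slc25a42 and Slc25a34, both higher, where it called 3.56% of all genes (2.19% higher and 1.37% lower). The hearts of both genotypes did not overlap in 13 members, 9 higher and 4 lower, where 20% of all genes did not overlap (10% higher and 9.98% lower). These shares describe the list and were not tested against other genes.

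Log2 fold changes, sensitive over resistant, were positive in 22 of the 41 members (53.7%, against 48.4% of all genes), with a median of 0.02 against -0.01 over all genes. This direction depended on the scaling, which moved all genes as well. The TMM factors, which correct each library for its composition, were 1.04, 1.06 and 0.989 in resistant hearts and 0.985, 0.986 and 0.945 in sensitive hearts. With library totals alone, a setting chosen after seeing the data, 17 of the 41 members were positive, where the share of all genes fell to 31.8%. The median of the members was then -0.07, while that of all genes moved to -0.09. Non-overlapping members then numbered 4 higher and 5 lower (9.76% and 12.2%, against 4.63% and 16.5% of all genes), and members with an unadjusted p under 0.05 numbered 3 higher and 4 lower (7.32% and 9.76%, against 3.03% and 13.0% of all genes). Mitochondrially encoded transcripts took 23.9% ± 0.476 of the counts in resistant hearts and 25.4% ± 0.492 in sensitive hearts (SD, n = 3) without overlap. With these and the globin genes left out of the edgeR fit, 22 members were positive and the median was 0.0171. In that fit 0 members reached an adjusted p under 0.05. The part of these transcripts in the values with library totals alone was not tested. With 3 hearts against 3, an exact two-sided permutation test of a single value cannot give a p under 0.1. Sums and ratios are given below without this or any other test.

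By substrate class, the median log2 fold change was 0.05 for carriers of ATP, ADP and phosphate, -0.10 for ATP-Mg and phosphate, -0.04 for di- and tricarboxylates, 0.01 for amino acids, 0.16 for carnitine, 0.05 for cofactors, nucleotides and glutathione, 0.12 for iron, 0.34 for the uncoupling protein-like members and -0.13 for those of less defined substrate. Few genes were tested in some classes. Carnitine had 1 gene, and iron had 2 of opposite sign (0.33 and -0.08). The uncoupling protein-like class had 3, and its median was the value of Slc25a14 (SE 0.31). Leaving out 1 heart moved these medians, at the extremes to -0.00 and 0.10 for ATP, ADP and phosphate without mice 381 and 370, -0.04 and -0.19 for ATP-Mg and phosphate without mice 369 and 370, 0.08 and -0.18 for di- and tricarboxylates without mice 368 and 370, -0.01 and 0.06 for amino acids without mice 381 and 370, 0.04 and 0.10 for cofactors, nucleotides and glutathione without mice 369 and 370, 0.07 and 0.16 for iron without mice 370 and 368, 0.52 and 0.03 for the uncoupling protein-like members without mice 379 and 381, and -0.24 and 0.03 for less defined substrates without mice 368 and 380. With library totals alone the medians of ATP, ADP and phosphate, amino acids, and cofactors, nucleotides and glutathione were negative. The summed counts per gene class, scaled to library size as CPM, did not overlap between genotypes in 5 classes, all 5 higher in sensitive hearts. These were carnitine (151 ± 5.31 against 168 ± 10.6), cofactors, nucleotides and glutathione (459 ± 6.20 against 501 ± 2.64), iron (41.1 ± 2.54 against 43.8 ± 0.521), the uncoupling protein-like members (19.2 to 20.9 against 21.2 to 24.4) and less defined substrates (271 ± 6.53 against 314 ± 37.6; SD, n = 3). These means were higher by 11.7%, 9.21%, 6.72%, 12.9% and 16.1%. The same sum over all genes tested was higher by 5.85% without overlap. That value is fixed by the TMM factors alone, so it shows what the scaling adds to a sum and measures no expression. Leaving out 1 heart took iron to 3.08% without mouse 370, the uncoupling protein-like members to 8.33% without mouse 380 and less defined substrates to 8.11% without mouse 381, where that over all genes was 8.04%, 6.61% and 4.36%. Slc25a34 held 74.1% of the level per kilobase of the less defined class. Carnitine and iron overlapped with upper-quartile factors. Only the last of the 5 did not overlap with library totals alone, and there mouse 381 was high through Slc25a34.

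Levels were compared between genes as CPM (counts scaled to library size, with TMM factors) per kilobase of the gene length given in the count table. Slc25a4, the ADP/ATP carrier of heart and skeletal muscle, held 64.6% of the summed level of the family, or 52.9% of its CPM without division by length. The phosphate carrier Slc25a3 held 9.03%, the oxoglutarate carrier Slc25a11 held 7.04%, the widely expressed ADP/ATP carrier Slc25a5 held 4.49%, and Slc25a34, a member whose substrate is less defined, held 2.83%. The other members were each at a lower level than these 5. At the other end, Slc25a48 and Slc25a54 had 0 counts in every heart, which allows up to 3 counts, or 0.147 to 0.155 CPM (counting error only). Slc25a2, Slc25a21, Slc25a41 and Slc25a43 had at most 6 counts in any heart and were not tested.

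**Figure D1:**
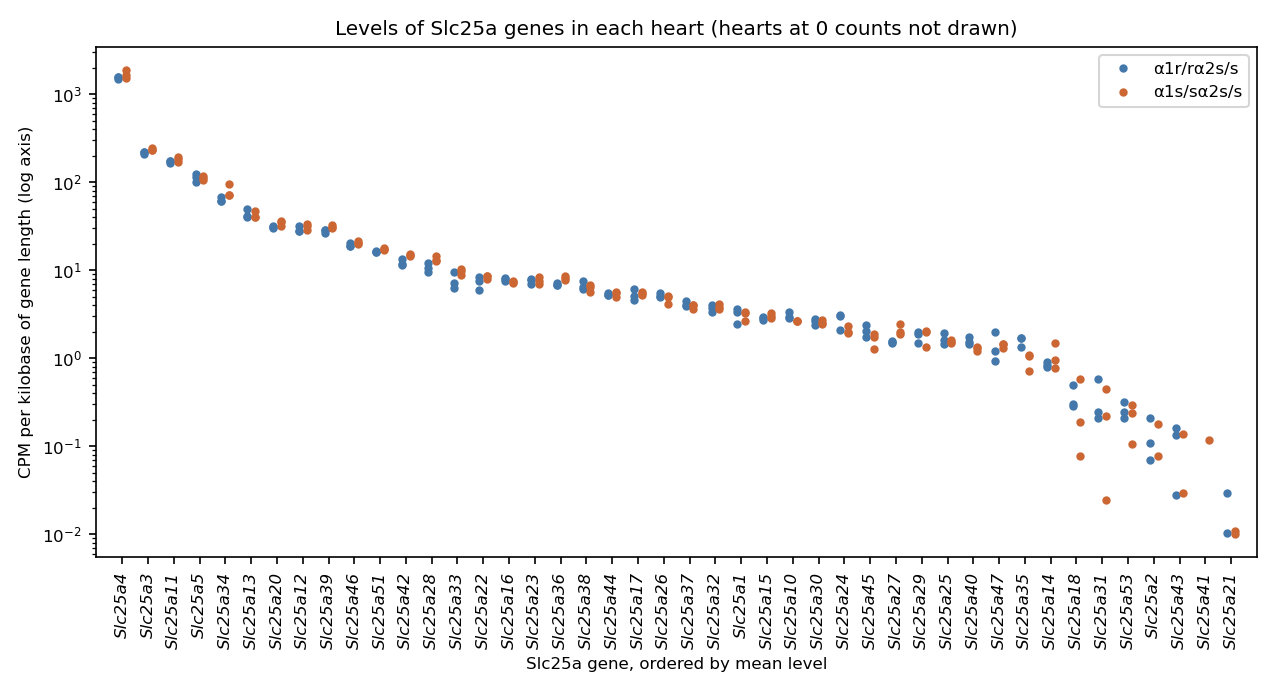
Levels of Slc25a genes in each heart, in TMM-normalized CPM per kilobase of gene length on a log axis, with genes ordered by mean level, hearts at 0 counts not drawn and 1 member not shown. Each point is a heart, blue for resistant and orange for sensitive; Slc25a4 stood above all other members in all 6 hearts, and Slc25a48 and Slc25a54 are absent because they had 0 counts.

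The carriers of ATP, ADP and phosphate made up 78.1% ± 0.0623 of the family's summed level in resistant hearts and 78.1% ± 0.503 in sensitive hearts (SD, n = 3). Slc25a4 (ENSMUSG00000031633, chromosome 8 of GRCm38, 46206797 to 46211284, minus strand) had 3730.1, 3518 and 3681 CPM in resistant hearts and 3898, 3637 and 4416 CPM in sensitive hearts. The genotypes overlapped, with the highest value in mouse 381. Its log2 fold change was 0.13 (standard error, SE 0.08, adjusted p = 0.494 in edgeR), and 0.05 without mouse 381, 0.20 without mouse 380 and 0.04 with library totals alone. Slc25a3 had 1220, 1162 and 1238 CPM in resistant hearts and 1297, 1280 and 1348 CPM in sensitive hearts. Each sensitive heart was above each resistant heart, although the log2 fold change of 0.12 (SE 0.07) did not pass the test (adjusted p = 0.456 in edgeR). The genotypes overlapped with library totals alone, where the value was 0.03. Slc25a5, which is X-linked, overlapped between genotypes, with a log2 fold change of -0.02. The ratio of Slc25a4 to Slc25a5, per kilobase, was 13.8 ± 1.64 in resistant hearts and 15.1 ± 1.15 in sensitive hearts (SD, n = 3) and also overlapped. Slc25a31, an ADP/ATP carrier known from testis, had 1 to 26 counts per heart. In the calcium-regulated group that exchanges ATP-Mg for phosphate, Slc25a23 was the most abundant, at 41.8, 37.5 and 41.3 CPM in resistant hearts and 44.0, 40.0 and 37.0 CPM in sensitive hearts. These values overlapped, and the log2 fold change of 0.00 changed sign with other scalings. Slc25a24 had 10.5, 10.6 and 7.23 CPM in resistant hearts and 6.60, 8.05 and 6.85 CPM in sensitive hearts. Mouse 370 lay among the sensitive hearts, and the log2 fold change was -0.40 (SE 0.17, adjusted p = 0.315 in edgeR). Slc25a25 had a log2 fold change of -0.10 and overlapped.

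The carriers of di- and tricarboxylates were dominated by Slc25a11, with 372, 349 and 369.7 CPM in resistant hearts and 387, 359.9 and 410.4 CPM in sensitive hearts. The genotypes overlapped, and the log2 fold change was 0.09 (SE 0.07), or 0.04 without mouse 381, 0.14 without mouse 380 and 0.00 with library totals alone. The dicarboxylate carrier Slc25a10 did not overlap and was lower in sensitive hearts, at 10.5 ± 0.819 against 9.14 ± 0.043 CPM (SD, n = 3), with a log2 fold change of -0.20 (adjusted p = 0.514 in edgeR). The citrate carrier Slc25a1 overlapped, with a log2 fold change of -0.04.

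Of the 8 amino acid carriers tested, 4 had a positive and 4 a negative log2 fold change, and all 8 overlapped between genotypes. Slc25a13, which exchanges aspartate for glutamate, had the highest level per kilobase of this class, with 155, 152 and 187 CPM in resistant hearts and 155, 155 and 181 CPM in sensitive hearts. Mice 370 and 381 were high and the other hearts lay close together, with a log2 fold change of -0.01. The ratio of its paralog Slc25a12 to Slc25a13, per kilobase, was 0.677 ± 0.0253 in resistant hearts and 0.732 ± 0.0462 in sensitive hearts (SD, n = 3). It did not overlap, though narrowly, with 0.692 in mouse 369 and 0.698 in mouse 381. Each of the other members had a log2 fold change between -0.37 and 0.20. They were the glutamate carriers Slc25a18 and Slc25a22, the ornithine carrier Slc25a15, the basic amino acid carrier Slc25a29, the glycine carrier Slc25a38 and Slc25a44, which moves branched-chain amino acids.

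The carnitine-acylcarnitine carrier Slc25a20, the only member of its class, had 156, 145 and 151 CPM in resistant hearts and 173, 156 and 176 CPM in sensitive hearts. All sensitive hearts were above all resistant hearts, narrowly for mouse 380. The log2 fold change was 0.16 (SE 0.07, adjusted p = 0.317 in edgeR), and 0.08 with library totals alone, where the genotypes overlapped, as they also did with upper-quartile factors.

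**Figure D2:**
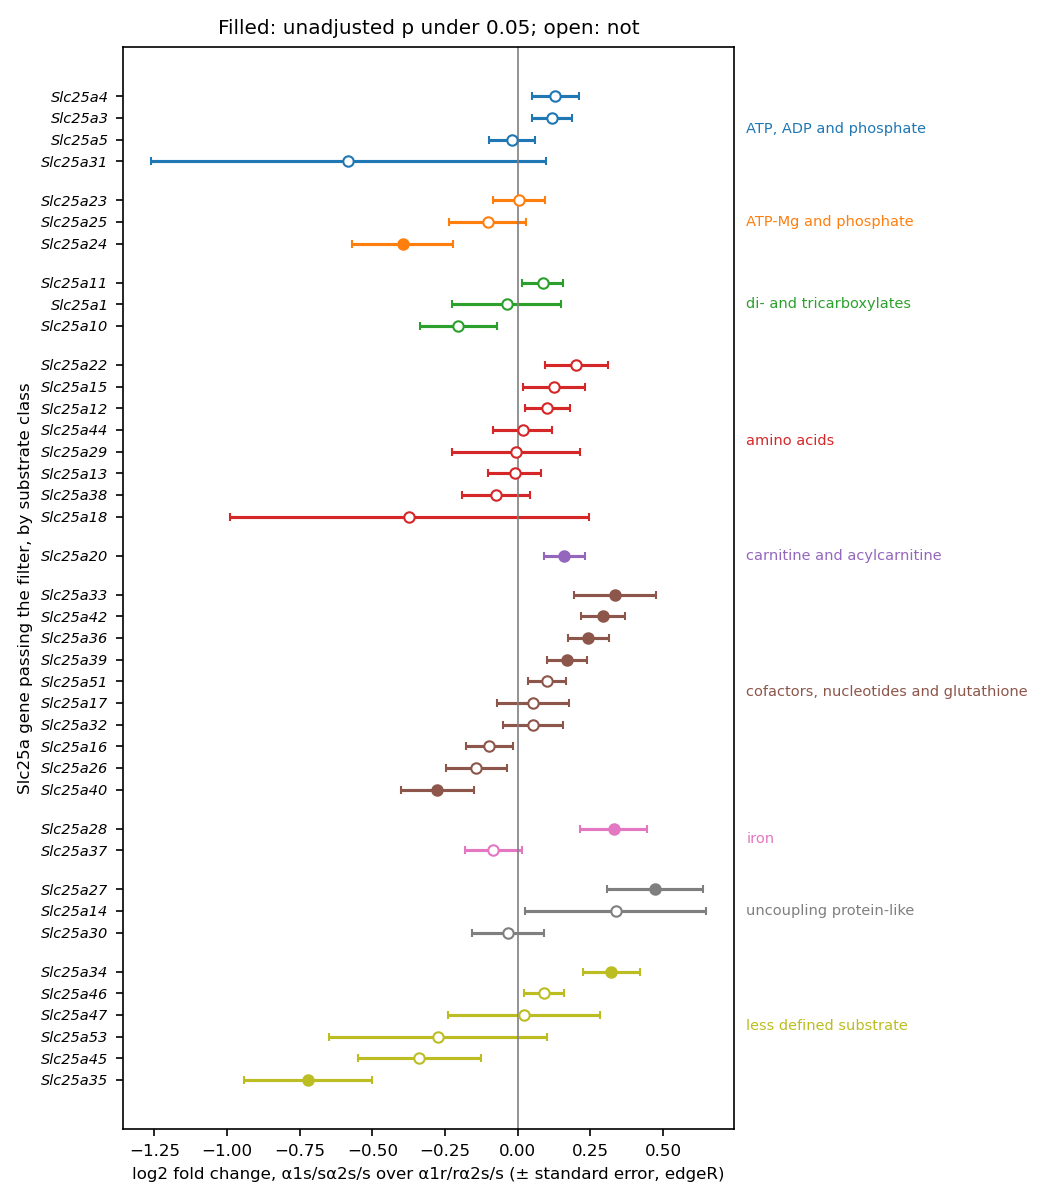
Log2 fold change of sensitive over resistant hearts (x axis, with standard error from edgeR, TMM scaling) for the 41 members tested except 1 that is not shown, grouped by substrate class on the y axis. Filled points had an unadjusted p under 0.05, 8 positive and 3 negative, and none had an adjusted p under 0.05. With library totals alone 17 in place of 22 members were positive, where the share of all genes went from 48.4% to 31.8%.

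Of the 11 carriers of cofactors, nucleotides and glutathione, 5 had an unadjusted p under 0.05 (45.5%, against 14.5% of all genes), 4 of them higher in sensitive hearts. This fell to 3 with library totals alone (27.3%, against 16.0% of all genes), Slc25a42 higher and Slc25a16 and Slc25a40 lower. The summed CPM of the class was 461, 452 and 463 in resistant hearts and 504, 499 and 499.6 in sensitive hearts. The genotypes did not overlap in this sum with TMM, RLE or upper-quartile factors, and overlapped with library totals alone. As a share of the family's summed level the class overlapped, at 4.19% ± 0.0992 and 4.24% ± 0.335 (SD, n = 3). Among the classes, only that of less defined substrates did not overlap in this share. It was higher in sensitive hearts, at 3.65% ± 0.0802 against 3.96% ± 0.231 (SD, n = 3).

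Slc25a42 (ENSMUSG00000002346, chromosome 8, 70184340 to 70212305, minus strand), which imports coenzyme A in exchange for adenine nucleotides, had the smallest p of the family. It had 79.6, 70.7 and 68.4 CPM in resistant hearts and 91.4, 86.5 and 89.9 CPM in sensitive hearts. The lowest sensitive heart was above the highest resistant heart, as it was with each of the 4 scalings compared. The log2 fold change was 0.29 (SE 0.08, adjusted p = 0.0733 in edgeR), while DESeq2 gave 0.30 with an adjusted p of 0.0198. Leaving out each heart in turn gave 0.25 to 0.36, with adjusted p in edgeR of 0.0738 to 0.206.

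Slc25a36 (chromosome 9, 97074961 to 97111157, minus strand), a pyrimidine nucleotide carrier, had 68.4, 64.5 and 65.0 CPM in resistant hearts and 77.5, 81.7 and 74.9 CPM in sensitive hearts. These groups did not overlap, at a log2 fold change of 0.24 (SE 0.07, adjusted p = 0.118 in edgeR), or 0.16 and overlap with library totals alone. Its gene overlaps the antisense gene Gm16185, which had 743 counts in all hearts against 8633 for Slc25a36, and whether counting used strand was not given in the sources used here. The related carrier Slc25a33 had 13.4, 11.9 and 18.1 CPM in resistant hearts and 16.9, 19.4 and 18.4 CPM in sensitive hearts. Mouse 370 lay among the sensitive hearts, and the log2 fold change of 0.33 (SE 0.14, adjusted p = 0.296 in edgeR) was 0.53 without that heart and 0.22 without mouse 369.

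The glutathione carriers Slc25a39 and Slc25a40 pointed in opposite directions. Slc25a39 had 72.9, 79.5 and 78.1 CPM in resistant hearts and 83.5, 89.7 and 86.2 CPM in sensitive hearts. Slc25a40 had 12.1, 12.9 and 14.6 CPM in resistant hearts and 10.2, 11.3 and 11.1 CPM in sensitive hearts. Neither overlapped, Slc25a39 being higher and Slc25a40 lower in sensitive hearts, though with library totals alone Slc25a39 overlapped, at a log2 fold change of 0.09. Their log2 fold changes were 0.17 (SE 0.07, adjusted p = 0.28 in edgeR) and -0.28 (SE 0.13, adjusted p = 0.333 in edgeR). The ratio of Slc25a39 to Slc25a40 per kilobase, in which the library scaling cancels, was 18.3, 18.8 and 16.3 in resistant hearts and 24.8, 24.1 and 23.6 in sensitive hearts. All 3 sensitive hearts were above all 3 resistant hearts in this ratio, which was chosen for the shared substrate and has no test. Ratios that were also computed, and that overlapped between genotypes, were those of Slc25a36 to Slc25a33, Slc25a23 to Slc25a24 and Slc25a3 to Slc25a4. Among the rest of the class, the NAD carrier Slc25a51 did not overlap and was higher in sensitive hearts (log2 fold change 0.10), and Slc25a16 did not overlap and was lower (log2 fold change -0.10). Slc25a51 overlapped with library totals alone, and Slc25a16, whose groups were 36.1 CPM at their nearest, overlapped with RLE. The peroxisomal carrier Slc25a17, the S-adenosylmethionine carrier Slc25a26 and the folate and FAD carrier Slc25a32 overlapped, with log2 fold changes between -0.14 and 0.05. With library totals alone Slc25a26 did not overlap and was lower in sensitive hearts (25.9 ± 1.77 against 22.1 ± 2.26 CPM, SD, n = 3).

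**Figure D3:**
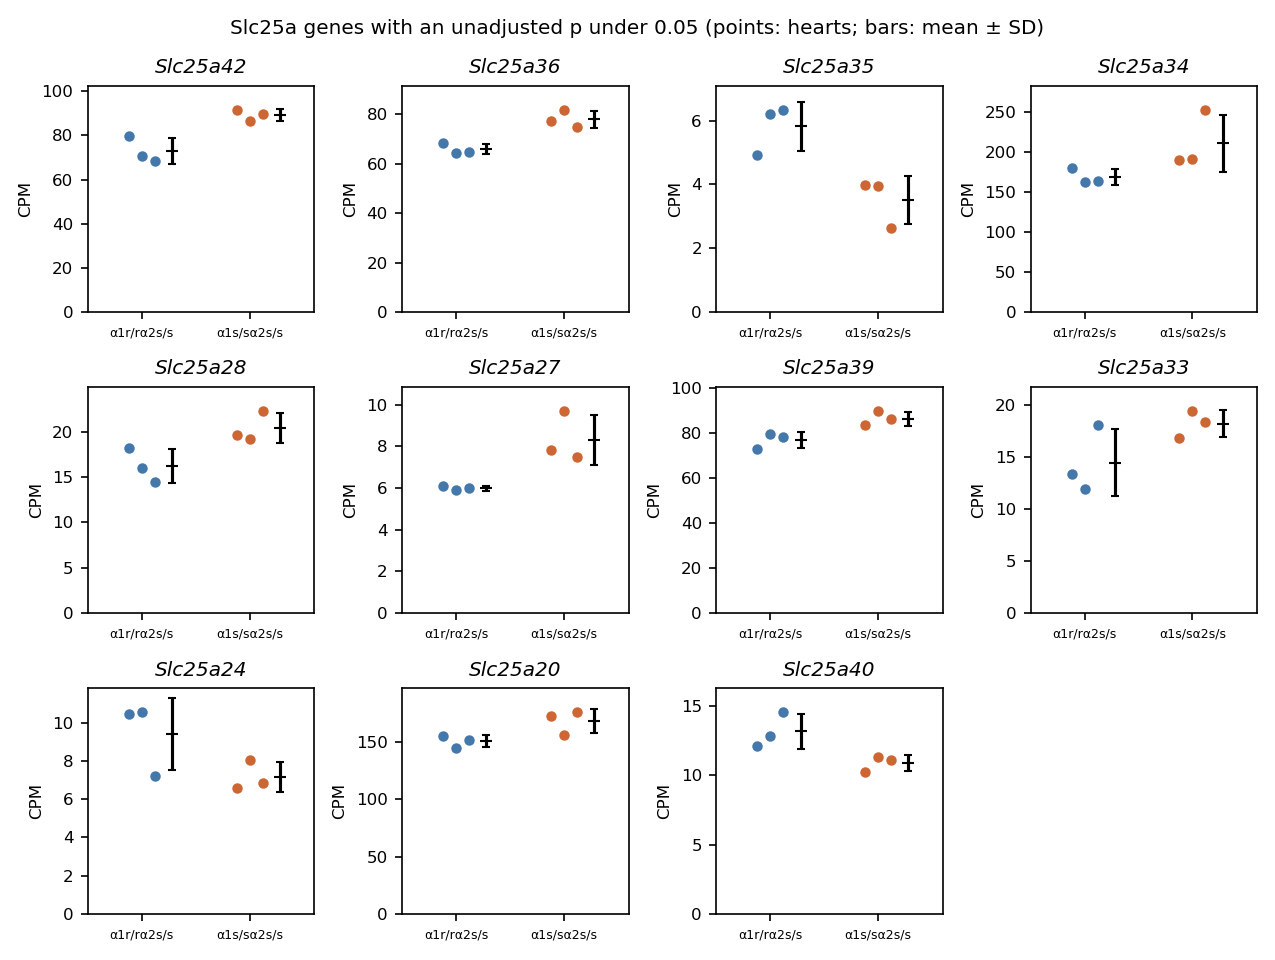
TMM-normalized CPM (y axis, from 0) of the 11 members with an unadjusted p under 0.05, in resistant hearts (blue) and sensitive hearts (orange), with the mean and SD of 3 hearts in black. Only Slc25a33 and Slc25a24 overlapped between genotypes with this scaling; with library totals alone Slc25a36, Slc25a39 and Slc25a20 overlapped too.

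The mitoferrins, which import iron for heme and iron-sulfur cluster synthesis, had fitted log2 fold changes of opposite sign, a difference that was not tested. Slc25a28 (chromosome 19, 43663822 to 43674881, minus strand) had 18.1, 16.0 and 14.5 CPM in resistant hearts and 19.6, 19.2 and 22.3 CPM in sensitive hearts. The sensitive hearts were higher without overlap, with a log2 fold change of 0.33 (SE 0.11, adjusted p = 0.186 in edgeR). Slc25a37, the form of erythroid cells, overlapped, with a log2 fold change of -0.08. The ratio of Slc25a37 to Slc25a28 per kilobase was 0.390 ± 0.0498 in resistant hearts and 0.292 ± 0.0383 in sensitive hearts (SD, n = 3), without overlap.

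Among the members that resemble uncoupling proteins, Slc25a27 had 6.11, 5.88 and 5.98 CPM in resistant hearts and 7.79, 9.68 and 7.47 CPM in sensitive hearts. All sensitive hearts were higher, with a log2 fold change of 0.47 (SE 0.16, adjusted p = 0.186 in edgeR). Slc25a30 had the highest level of this class, at 12.7, 12.2 and 11.1 CPM in resistant hearts and 11.5, 12.5 and 11.2 CPM in sensitive hearts, and overlapped. The X-linked Slc25a14 had 2.01, 1.86 and 2.16 CPM in resistant hearts and 1.84, 2.26 and 3.53 CPM in sensitive hearts. Its log2 fold change of 0.34 (SE 0.31) rested on mouse 381, and was 0.03 without that heart and 0.53 without mouse 379.

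The members whose substrate is less defined included Slc25a35, which had the most negative log2 fold change of the 41 members tested. Slc25a34 (chromosome 4, 141618824 to 141623821, minus strand) had 179.7, 163 and 163 CPM in resistant hearts and 189, 191 and 252 CPM in sensitive hearts. Mouse 381 stood above the others, and the groups did not overlap with any of the 4 scalings. The log2 fold change was 0.32 (SE 0.10, adjusted p = 0.137 in edgeR; DESeq2 gave 0.33 with adjusted p = 0.0338), and 0.17 in edgeR without mouse 381. Slc25a35 (chromosome 11, 68968131 to 68974365, plus strand) had 4.92, 6.21 and 6.33 CPM in resistant hearts and 3.97, 3.95 and 2.65 CPM in sensitive hearts. Every sensitive heart was lower with each of the 4 scalings, with a log2 fold change of -0.72 (SE 0.22, adjusted p = 0.133 in edgeR). Slc25a45 had 5.44, 6.35 and 4.67 CPM in resistant hearts and 4.96, 4.63 and 3.42 CPM in sensitive hearts. It overlapped, with a log2 fold change of -0.34 (SE 0.21) that was -0.22 without mouse 369 and -0.19 without mouse 381. Slc25a46, Slc25a47 and the X-linked Slc25a53 overlapped as well, with log2 fold changes of 0.09, 0.02 and -0.27.

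Promoters are shown for the 3 members with the smallest p that had an entry, since these carry the differences closest to the threshold. They come from RefSeq (GRCm38.p6) and run from 250 bases before to 50 bases after the start annotated there. For each promoter shown, this start differs from the gene boundary in the count table that is given above. Of the 47 members, 36 had an entry. Capitals mark the GC box GGGCGG, searched on both strands.
Slc25a42, chr8:70212232-70212531, minus strand: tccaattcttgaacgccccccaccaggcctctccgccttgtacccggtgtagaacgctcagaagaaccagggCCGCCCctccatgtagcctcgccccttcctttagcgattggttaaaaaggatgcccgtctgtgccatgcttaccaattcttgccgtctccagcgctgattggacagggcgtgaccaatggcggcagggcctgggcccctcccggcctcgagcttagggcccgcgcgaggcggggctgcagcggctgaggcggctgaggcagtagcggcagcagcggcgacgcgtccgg
Slc25a36, chr9:97110992-97111291, minus strand: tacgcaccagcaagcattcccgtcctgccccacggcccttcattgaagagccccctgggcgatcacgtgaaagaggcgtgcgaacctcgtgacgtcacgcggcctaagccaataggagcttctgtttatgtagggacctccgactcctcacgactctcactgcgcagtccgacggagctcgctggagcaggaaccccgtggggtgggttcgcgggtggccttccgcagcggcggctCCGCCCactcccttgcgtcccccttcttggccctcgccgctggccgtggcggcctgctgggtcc
Slc25a34, chr4:141623785-141624084, minus strand: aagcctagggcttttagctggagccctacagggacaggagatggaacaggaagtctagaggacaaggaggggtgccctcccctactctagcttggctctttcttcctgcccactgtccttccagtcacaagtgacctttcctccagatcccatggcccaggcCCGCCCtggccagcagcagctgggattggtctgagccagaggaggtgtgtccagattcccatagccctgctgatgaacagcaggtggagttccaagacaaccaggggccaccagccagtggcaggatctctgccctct
Each held 1 GC box, which was present in 82.6% of the 46 Slc25a promoters, 60% of the promoters of genes tested and 35.7% of all promoters. Slc25a36 also held the E-box CACGTG (17.4% of Slc25a promoters, 9.69% of those of genes tested and 7.15% of all) and the cAMP response element TGACGTCA (4.35%, 2.87% and 1.79%). Slc25a34 was the only member with the half-site AAGGTCA (2.17%, 3.31% and 4.72%). A match describes letters in the window and says nothing of binding.

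Some members lie side by side. Slc25a29 and Slc25a47 are 162 bases apart on chromosome 12, Slc25a41 and Slc25a23 are 2056 bases apart on chromosome 17, Slc25a54 and Slc25a24 are 6461 bases apart on chromosome 3, and Slc25a43 and Slc25a5 are 18448 bases apart on chromosome X. In the last 3 pairs the partner at 0 or few counts sat beside a member with 132 or more counts in every heart. Paralogs such as Slc25a4 and Slc25a5 share sequence, so reads that map to both are uncertain. Overlapping genes on the opposite strand include Rnf167 at Slc25a11 (4839 counts in all hearts, 245 shared bases) and Lrig1 at Slc25a26 (4973 counts, 144 bases). Atp6v1e1 had 12653 counts over its whole length and shares 32 bases with Slc25a18. Slc25a18 had 74 counts in all hearts, from 3 to 21 per heart, so its values are uncertain. How many of these came from the shared bases was not tested.

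Of the genes that work with the carriers, 0 passed an adjusted p of 0.05 in edgeR in each of 4 lists and 0 in DESeq2. Of all genes, 1.44% passed in edgeR and 3.56% in DESeq2, so 0 in lists of 4 to 24 genes is near these shares. The signs of the listed genes moved with the scaling, as those of all genes did, and the enzymes alone stayed mostly positive with library totals. With library totals alone, where 31.8% of all genes were positive, positive genes numbered 1 of 4 carriers with other names, 4 of 15 in import and insertion, 6 of 23 in other transport and 16 of 24 enzymes (median 0.02), and at an unadjusted p under 0.05 there were 0 higher and 2 lower, both in import and insertion (13.3% of that list, against 13.0% of all genes lower). Of the carriers with other names, 4 of 4 tested were positive (against 48.4% of all genes, median log2 fold change 0.05) and Ucp1 had 0 counts. Ucp3, an uncoupling protein of muscle, had 119.8, 123 and 70.8 CPM in resistant hearts and 188, 115 and 142 CPM in sensitive hearts. The groups overlapped, and the log2 fold change was 0.50 (SE 0.18, adjusted p = 0.201 in edgeR), or 0.30 without mouse 379 and 0.29 without mouse 370. In the machinery that imports and inserts carriers, 8 of 15 were positive (53.3%, against 48.4% of all genes). At an unadjusted p under 0.05 there were 1 higher and 2 lower (20%, against 14.5% of all genes). Timm22, the insertion channel, had 25.0, 27.2 and 25.1 CPM in resistant hearts and 23.2, 20.5 and 19.8 CPM in sensitive hearts. The sensitive hearts were lower without overlap (log2 fold change -0.28, adjusted p = 0.184 in edgeR). The small chaperone Timm8b had 43.8, 45.5 and 48.3 CPM in resistant hearts and 52.0, 50.9 and 59.1 CPM in sensitive hearts. Here the sensitive hearts were higher without overlap (log2 fold change 0.23, adjusted p = 0.193 in edgeR), and the value was 0.15 with library totals alone.

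Of 23 other mitochondrial transport genes, 15 were positive (65.2%, against 48.4% of all genes, median 0.04). Only 1 had an unadjusted p under 0.05 (4.35%, against 14.5% of all genes). This was Mpc2, a subunit of the pyruvate carrier, with 193, 189 and 207 CPM in resistant hearts and 221, 210.3 and 228 CPM in sensitive hearts. The sensitive hearts were higher without overlap (log2 fold change 0.16, adjusted p = 0.287 in edgeR), and the value was 0.08 with library totals alone. The outer membrane channel Vdac1, the gene of highest level in that list, had 765, 722 and 793 CPM in resistant hearts and 773, 777 and 864 CPM in sensitive hearts. It overlapped, with a log2 fold change of 0.08 that was 0.03 without mouse 381, 0.05 without mouse 369 and -0.00 with library totals alone. Of 24 enzymes that share substrates with the carriers, 21 were positive (87.5%, against 48.4% of all genes, median 0.10) and 5 had an unadjusted p under 0.05, all 5 higher (20.8%, against 14.5% of all genes). Mitochondrial creatine kinase Ckmt2, the gene of highest level in that list, had 1661, 1632 and 1834 CPM in resistant hearts and 1847, 1793 and 1904 CPM in sensitive hearts. Mouse 370 overlapped the sensitive hearts, and the log2 fold change was 0.11 (adjusted p = 0.508 in edgeR), or 0.17 without mouse 370 and 0.03 with library totals alone.

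Markers of cell types were measured in the same hearts, because in whole tissue fewer cells of a type and less RNA per cell cannot be told apart. Sums are of levels in CPM per kilobase. Cardiomyocyte markers were positive in 8 of 10 (5 with library totals alone), with 0 at an unadjusted p under 0.05, and their sum was 19226, 18009 and 20659 in resistant hearts and 19576, 19019.8 and 20920.4 in sensitive hearts, with Mb the most abundant. Fibroblast markers were negative in 6 of 8, at 235, 250.5 and 215 against 229, 218 and 203. Dcn, which held 41.4% of this sum, had a log2 fold change of 0.06, while Col1a1, Col3a1 and Lum were lower without overlap (-0.41, -0.49 and -0.26, adjusted p of 0.0743, 0.0542 and 0.155 in edgeR), Col1a2 had -0.26 with overlap, and DESeq2 called Col1a1 (adjusted p = 0.0122). Smooth muscle and pericyte markers were negative in 6 of 6 (5 with RLE), at 236, 219.9 and 222 against 222, 219 and 195. Rgs5 held 75.3% of this sum at a log2 fold change of -0.00, while Acta2, Pdgfrb and Cnn1 had -0.45, -0.33 and -0.58 with overlap (adjusted p of 0.118, 0.144 and 0.342 in edgeR) and DESeq2 called Acta2 (adjusted p = 0.0345). Macrophage markers were negative in 6 of 6, at 115, 154 and 98.7 against 100.4, 95.3 and 77.0. Mrc1 was lower without overlap (log2 fold change -0.52, adjusted p = 0.0549 in edgeR), C1qa, the most abundant, and C1qb had -0.46 and -0.43 with overlap, and DESeq2 called Mrc1 and C1qa (adjusted p of 0.0067 and 0.0402). An unadjusted p under 0.05 was found in 4 of 8 fibroblast, 3 of 6 smooth muscle and 3 of 6 macrophage markers, all lower in sensitive hearts, against 14.5% of all genes. With library totals alone, where 16.0% of all genes had such a p (3.03% higher and 13.0% lower), it was found in 4 of 8, 3 of 6 and 5 of 6, all lower, and in 2 of 10 cardiomyocyte markers, both lower.

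Endothelial markers were negative in 4 of 8, at 306, 329 and 282 against 348, 339.8 and 316. Fabp4, the most abundant, and Ly6c1 rose with log2 fold changes of 0.39 and 0.41 (adjusted p of 0.0358 and 0.0125 in edgeR), and Kdr was lower without overlap at -0.50 (adjusted p = 0.0694). At an unadjusted p under 0.05 there were 2 higher and 1 lower of 8, against 7.19% higher and 7.27% lower of all genes. With library totals alone there were 2 higher and 3 lower, against 3.03% and 13.0% of all genes. The sums of these 5 lists overlapped between genotypes, except that of smooth muscle with library totals alone, which was lower in sensitive hearts. Erythroid markers (Hbb-bs the most abundant) were positive in 5 of 5 tested, at 1213, 1617 and 683 against 1011, 4057 and 511, overlapping and with mouse 380 far above the rest. Brown adipocyte markers (Cidea) had 3 of 4 tested positive, at 33.2, 31.6 and 34.8 against 33.6, 32.4 and 35.6, which overlapped, with Ucp1 at 0 and Plin1, at under 2 CPM, higher without overlap (log2 fold change 1.32, adjusted p = 0.266 in edgeR). Skeletal muscle markers had 3 of 4 tested positive, at 415, 425 and 502 against 537, 507 and 515, with Myh4 at 0 and Myh1 and Myh2 at no more than 7 counts in any heart. This sum was higher in sensitive hearts without overlap, but overlapped with library totals alone and as CPM without division by length. Ckm, which held 69.9% of it, overlapped with a log2 fold change of 0.09, Acta1 was higher without overlap (0.52, adjusted p = 0.0548 in edgeR) and Mylpf had -0.75 with overlap. The paper counted α-skeletal actin, which Acta1 encodes, in the fetal gene program of the heart. By RT-qPCR in left ventricles it found no significant change in that mRNA. This sum is therefore not specific to skeletal muscle. The part of these cell types in the values of the carriers was not tested.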

How the data were processed

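RNA-seq of 6 mouse hearts was used, 3 per genotype, grouped by their labels. The counts per gene were deposited by the authors as raw values without normalization. Per the submitters' processing notes the tools were fastp, STAR and featureCounts, with build mm10; the strand setting was not given in the sources used here. The authors' own comparison by DESeq2 (mean signal, log2 fold change and its error, score, p-value and adjusted p-value) was deposited too and was not used. All 47 members are in GENCODE M21, 44 with identical coordinates.

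Counts were analysed in R 4.3.3 with edgeR 4.0.16: TMM, filterByExpr (minimum count 10, minimum total 15), the quasi-likelihood test and Benjamini-Hochberg adjustment over 14866 genes. The biological coefficient of variation was 11.1%. The standard error was the absolute log2 fold change divided by the square root of F. Hearts of a genotype differed by more than counting noise (chi-square per gene 6.85 to 13.1). Alternatives were DESeq2 1.42.0, RLE, upper-quartile factors, no filter, at least 10 counts in every heart, no mitochondrially encoded or globin genes, a robust prior, an adjusted p under 0.1, leaving out each heart and, chosen after seeing the data, library totals alone. Both tests were tested on simulated counts, first with gene-wise dispersions and then, after that result was seen, with trended ones. Calls on unchanged genes stayed near the threshold with trended dispersions and were well above it with gene-wise ones, so single calls near the threshold are less certain than their adjusted p states.

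Members and lists were chosen with earlier results of these data known. Values in every heart are given for members with p under 0.05 (adjusted or not), the highest level of their class, the 5 largest changes at a mean log2 CPM of at least 1, or no overlap within the 10 highest levels. From each of 4 pathway lists, the gene of smallest p and that of highest level are given. Some single genes, among them 1 member and 1 gene of these lists, are not reported here. The 8 marker lists were for cardiomyocytes, fibroblasts, endothelium, smooth muscle and pericytes, macrophages, erythroid cells, brown adipocytes and skeletal muscle.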

Additional observations from a re-analysis of the deposited data

How the results depend on the processing

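No paired analysis was possible because the labels give the genotypes no shared replicate number. The count of all genes past the threshold in edgeR was 214, and it was 402 at an adjusted p under 0.1, 400 with DESeq2 and 618 without a filter. Leaving out each heart gave 80 to 158, with 80 without mouse 368, 91 without mouse 369, 135 without mouse 379, 123 without mouse 380 and 102 without mouse 381, where fewer hearts were fitted. The count of members was 0, and 1 at an adjusted p under 0.1 (Slc25a42), 2 with DESeq2 and 2 without a filter (Slc25a42 and Slc25a34), 1 with the robust prior (Slc25a42), and 0 to 0 leaving out each heart. With library totals alone, median log2 fold changes moved to -0.0659 for the members, -0.0333 for ATP, ADP and phosphate, -0.19 for ATP-Mg and phosphate, -0.13 for di- and tricarboxylates, -0.0771 for amino acids, 0.0768 for carnitine, -0.0276 for cofactors, nucleotides and glutathione, 0.0381 for iron, 0.25 for the uncoupling protein-like members and -0.21 for the less defined ones, where that of all genes moved to -0.0906. With at least 10 counts in every heart, which drops Slc25a31, the ATP, ADP and phosphate median was 0.11, and DESeq2 and no filter gave -0.27 and -0.27 for the less defined members (7 genes in place of 6), -0.12 and -0.12 for di- and tricarboxylates (4 in place of 3), -0.0454 and -0.0458 for ATP-Mg and phosphate (4 in place of 3) and -0.00234 and -0.0024 for amino acids (9 in place of 8), which had -0.00772 with upper-quartile factors. Leaving out each heart gave medians of 0.00993 to 0.0633 for the members, -0.000515 to 0.0997 for ATP, ADP and phosphate, -0.191 to -0.0412 for ATP-Mg and phosphate, -0.0116 to 0.0574 for amino acids, 0.0734 to 0.158 for iron, -0.184 to 0.0841 for di- and tricarboxylates, 0.0378 to 0.0997 for cofactors, nucleotides and glutathione, 0.0284 to 0.519 for the uncoupling protein-like members and -0.245 to 0.0265 for the less defined ones. Signs near 0 reversed for Slc25a23 (-0.0088 with upper-quartile factors, -0.0759 with library totals alone, -0.0609 to 0.0638 leaving out each heart), Slc25a13 (-0.0895 to 0.0956), Slc25a30 (-0.0863 to 0.013) and Vdac1 (-0.000467 with library totals alone); the cause was not tested. With 3 hearts per genotype, members at few counts such as Slc25a31, Slc25a18 and Slc25a53 had standard errors of 0.38 to 0.68. Changes of that size, and larger ones, could go uncalled in these members. Slc25a35, at a log2 fold change of -0.72 with SE 0.22, did not reach an adjusted p under 0.05 in edgeR.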
